A study of Mus musculus with 22 samples.

Results

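Severe and mild experimental autoimmune encephalomyelitis (EAE), the mouse model of multiple sclerosis, were compared for the RNAs bound by hnRNP A1 in the spinal cord. The comparison used the footprint lists of the 4 mice with severe EAE and the 3 mice with mild EAE, 7 of the 22 samples of the series and 7 of its 10 samples with such a list. These lists hold 84140 of the 136207 footprints of the series, 48718 in mild and 35422 in severe EAE. Groups follow the clinical scores in the sample labels, with EAE_3 and EAE_4 at 1.5 and EAE_7 at 1.0 in mild EAE, and EAE_1 and EAE_5 at 2.5 and EAE_2 and EAE_6 at 3.0 in severe EAE. All 7 animals were female C57BL/6 mice without a transgene, immunised with the MOG(35-55) peptide and an adjuvant, given pertussis toxin, and killed 15 days after clinical onset. The treatment protocol gives 12 weeks as the age at immunisation and the series description gives 8 weeks. Spinal cord fragments were crosslinked with UV light and hnRNP A1 was immunoprecipitated with RNase I present. The labels name antibody clone 9H10, while the study's list of antibodies names another clone. Naïve mice, inputs and pooled control IgG precipitations were not compared here.

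hnRNP A1 is an abundant nuclear RNA-binding protein that shuttles to the cytoplasm. It regulates alternative splicing, RNA transport, stability and translation, and recognises short motifs built around UAG. In multiple sclerosis and in EAE the protein leaves the nucleus of neurons and gathers in the cytoplasm. Mild and severe EAE were compared to find which RNAs bound in mild disease were still listed in severe disease.

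The lists differed greatly in length, and more so in severe EAE. A footprint is 1 listed interval of the genome, with no height, strand or read count. The mild lists held 14534 footprints in EAE_3, 9751 in EAE_4 and 24433 in EAE_7. The severe lists held 2670 footprints in EAE_1, 209 in EAE_2, 31870 in EAE_5 and 673 in EAE_6, so that EAE_5 alone gave 90.0% of the severe footprints. EAE_5 therefore stood apart from the other severe mice. The study describes its outlying severe animal, which its sample list matches to EAE_5, as in remission shortly before the end of the experiment, unlike the other severe mice. Whether the shortness of the other severe lists, above all EAE_2 and EAE_6, comes from the disease or from the libraries was not tested. The libraries include the matched inputs, whose sites were removed from each list. The lists of EAE_1, EAE_2 and EAE_6 are called the 3 short severe lists. A single footprint was worth 47.8 per 10000 footprints in EAE_2, 14.9 in EAE_6 and 3.75 in EAE_1, against 0.314 in EAE_5 and 0.409 to 1.03 in the mild mice. A gene without a footprint in a short list had none retained there, which is not evidence that it was unbound. In tissue, fewer cells expressing a gene cannot be told apart from less RNA per cell. Footprints lay within annotated genes for 90.6% to 94.1% of the mild lists and for 81.8% to 93.3% of the severe lists. Marker genes of neurons and of the main glial cells were footprinted in all mild mice, with 22 to 36 footprints in neuronal markers, 22 to 41 in oligodendrocyte markers, 17 to 31 in astrocyte markers and 8 to 34 in microglial markers in the mild mice. In the severe mice these lists ranged from 0 to 78, from 1 to 77, from 0 to 52 and from 0 to 39 footprints, with the highest counts in EAE_5. Schwann cell markers had 0 to 7 footprints per mouse, and endothelial markers had 11 in EAE_7, 12 in EAE_5 and 0 in the other mice. Markers of T cells and of skeletal muscle had no footprint in any of the 7 mice.

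The sites that most mice shared are described first. No base of the genome was covered by a footprint in all 7 mice, 1064 bases were covered in 6 mice, and these formed 17 stretches. Of the 17, 12 lay in coding sequence, 3 in introns, 1 in a 3' UTR and 1 in a noncoding exon. As background, 9105 stretches were covered in at least 2 mild mice. Of these, 74.5% lay in coding sequence, 10.6% in introns, 2.48% in 3' UTRs and 6.27% in noncoding exons. The count of 12 in coding sequence is near that background and does not mark what stayed listed in severe disease. The central bases of 9 of them, at most 30 per stretch, are printed from the GRCm38 genome on the strand of the gene, since they carry the difference between intronic and exonic sites. Capitals mark TAG, the DNA letters of the UAG core of the hnRNP A1 motif, searched on the gene strand only.
Celf2 intron, chr2:6827228-6827257, minus strand: cagacagacagacagaagTAGgTAGgTAGa
Spock1 intron, chr13:57753449-57753478, minus strand: aaatgaTAGtTAGatgaTAGgttggTAGgt
Npas3 intron, chr12:53270656-53270677, plus strand: aTAGTAGtgTAGtgTAGtgata
Capns1 3' UTR, chr7:30187243-30187272, minus strand: acccTAGcacacccaatccacgccatctgt
Lrp1 coding exon, chr10:127555717-127555746, minus strand: tcagacgaacgcgggtgccatgtcaacgag
Fkbp8 coding exon, chr8:70531586-70531615, plus strand: gatggacccgacctggagatgctgagtggg
Hnrnpk coding exon, chr13:58400350-58400379, minus strand: acagccagaagaaaccttccccaacaccga
Col1a1 coding exon, chr11:94947888-94947917, plus strand: tcctggtacccctggacctcagggtattgc
Naca coding exon, chr10:128046222-128046251, plus strand: actccacacagacggccacgcagcaagccc

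The 3 intronic stretches were dense in UAG and the coding stretches held almost none. The Celf2 stretch, chr2:6827176-6827310, held 20 UAG in 135 nt and was covered in every mouse but EAE_2. Celf2 encodes a splicing regulator of neurons and muscle. The Spock1 stretch, chr13:57753410-57753517, held 15 UAG in 108 nt and was also covered in every mouse but EAE_2. The Npas3 stretch, in an intron of a neuronal transcription factor gene, held 4 UAG in its 22 nt and was covered in every mouse but EAE_1. Over the 12 coding stretches there was 1 UAG in 671 nt, in a stretch of A2m that is not printed, while the 3 introns had 39 in 265 nt. Over whole lists of single mice, coding footprints held 3.58 to 5.72 UAG per 1000 nt and intronic footprints 18.7 to 40.2. A difference between these classes was thus not particular to the shared stretches. The Col1a1 stretch, chr11:94947883-94947922, was covered in all 4 severe mice and in EAE_3 and EAE_7. The printed bases of Naca share a run of 21 bases with the corresponding stretch of Gm6863, a processed pseudogene on another chromosome, so a footprint at 1 of these genes may derive from RNA of the other.

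Most genes bound throughout mild EAE were listed again in the long severe list and few in the short ones. A mild target was defined as a gene with a footprint in all 3 mild mice, and there were 2155 among the 11623 genes footprinted in any of the 7 mice. EAE_5 had a footprint in 2057 of them, or 95.5%. EAE_1 had one in 653, or 30.3%, EAE_6 in 264, or 12.3%, and EAE_2 in 78, or 3.62%. The order followed the length of the lists, from 31870 to 209 footprints. Grouped by the number of severe mice, 80 mild targets were listed in none, 1282 in 1, 627 in 2, 148 in 3 and 18 in all 4. For 1265 targets the single severe mouse was EAE_5. Only 18 targets were missing from EAE_5 and present in another severe mouse. The 3 short severe lists together held 810 of the 2155 mild targets, or 37.6%, which is the background for the gene groups below. Because the targets were chosen on the mild mice, no test was made of these counts.

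**Figure D1:**
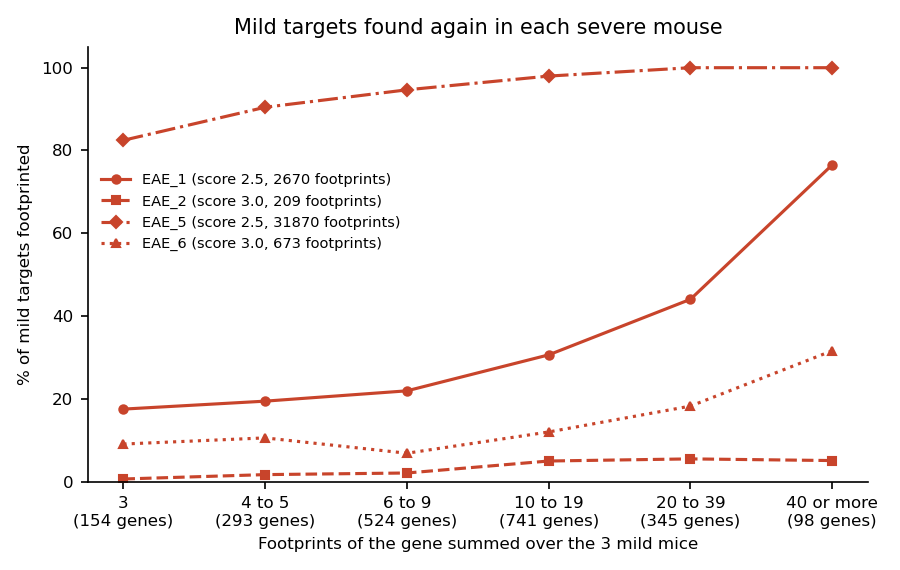
Percent of mild targets with a footprint in each severe mouse (vertical axis, percent), by the number of footprints the gene had over the 3 mild mice (horizontal axis, 6 bins). Each line is 1 severe mouse, and targets with 40 or more mild footprints were found in 76.5% of cases in EAE_1, 5.10% in EAE_2, 100% in EAE_5 and 31.6% in EAE_6.

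Targets with more footprints in mild EAE were found more often in severe EAE. Of the 154 targets with 3 mild footprints, 17.5% were found in EAE_1, 82.5% in EAE_5 and 9.09% in EAE_6. Of the 98 targets with 40 or more, 76.5% were found in EAE_1, all in EAE_5 and 31.6% in EAE_6. EAE_2, with the shortest list, stayed between 0.649% and 5.51% in all 6 bins. All 80 targets found in no severe mouse had fewer than 20 mild footprints. The median number of mild footprints was 5 for targets found in no severe mouse, 13 for those found in 2 severe mice and 21.5 for those found in all 4.

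Read in the other direction, more than 60% of the genic footprints of every severe mouse lay in genes of the mild mice. For each mouse the percent of its genic footprints that lay in genes footprinted in 2 mild mice other than itself was computed, as a mean over pairs of mild mice for the severe animals. The value was 64.8% in EAE_3, 76.8% in EAE_4 and 58.2% in EAE_7, with a mean of 66.6% ± 9.46 (SD, n = 3). It was 66.2% in EAE_1, 71.2% in EAE_2, 62.8% in EAE_5 and 62.4% in EAE_6, with a mean of 65.6% ± 4.04 (SD, n = 4). Counted over genes instead of footprints, the values were 41.7%, 56.5% and 30.5% in the mild mice and 50.9%, 59.3%, 32.7% and 54.6% in EAE_1, EAE_2, EAE_5 and EAE_6, so that EAE_2 lay above the mild range. Within mild EAE both values were lower in longer lists, each mild mouse had only 1 pair for comparison, and the groups were not tested against each other.

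The 18 genes footprinted in all 7 mice included genes of the extracellular matrix and the cytoskeleton. Col1a1 on chr11:94936224-94953042, which encodes a chain of type I collagen, had 9, 7 and 20 footprints in EAE_3, EAE_4 and EAE_7. In severe EAE it had 7 footprints in EAE_1, 5 in EAE_2, 18 in EAE_5 and 8 in EAE_6. Its share was 6.19 to 8.19 per 10000 footprints in the mild mice and 5.65 in EAE_5, but 26.2 in EAE_1, 119 in EAE_6 and 239 in EAE_2. All 74 Col1a1 footprints had their midpoint in coding sequence. Col1a2, the other chain of type I collagen, had 1, 7 and 10 footprints in the mild mice in the same order. It had 6 in EAE_1, 5 in EAE_2, 5 in EAE_5 and 1 in EAE_6. Fn1, which encodes the matrix glycoprotein fibronectin, had 18, 12 and 33 footprints in the mild mice and 9, 2, 39 and 2 in EAE_1, EAE_2, EAE_5 and EAE_6.

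Lrp1 on chr10:127538161-127621148 had the most footprints of these 18 genes. It encodes a large endocytic receptor that clears lipoproteins and myelin debris. It had 52, 38 and 56 footprints in EAE_3, EAE_4 and EAE_7, then 22 in EAE_1, 2 in EAE_2, 73 in EAE_5 and 6 in EAE_6. Its share was 22.9 to 39.0 per 10000 in the mild mice, 22.9 in EAE_5, and 82.4 to 95.7 in the 3 short severe lists. Of its 249 footprints, 240 lay in coding sequence, spread over the gene. Ahnak2, a gene for a very large scaffold protein, had 12, 12 and 4 footprints in the mild mice and 8, 6, 10 and 3 in the severe mice. A stretch of Ahnak2, chr12:112784567-112784695, was covered in every mouse but EAE_6.

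Among the other genes in all 7 mice, Map1a, which encodes a microtubule-associated protein of axons and dendrites, had 11, 10 and 14 footprints in mild EAE and 3, 1, 18 and 2 in severe EAE. Ywhag encodes a 14-3-3 adaptor protein of neurons, and 14 of its 16 footprints lay in the 3' UTR. Meg3, an imprinted long noncoding RNA, had 8, 12 and 14 footprints in mild EAE and 7, 1, 18 and 1 in severe EAE. Npas3 had 1, 2 and 8 in mild EAE and 2, 1, 10 and 2 in severe EAE, with 24 of 26 in introns. Zfp973, a zinc finger gene, had 18, 18 and 24 in mild EAE and 2, 3, 18 and 1 in severe EAE, with 77 of 84 in introns. Rpl32 had 13 footprints, 8 in coding sequence and 5 in the 5' UTR, and the latter met the small nucleolar RNA gene Snora7a within it. The footprints of Gm21984 met the protein-coding genes that overlap it. A gene in all 7 lists must have a share of at least 47.8 per 10000 in EAE_2, so the shares of these 18 genes in EAE_2 are high by construction.

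**Figure D2:**
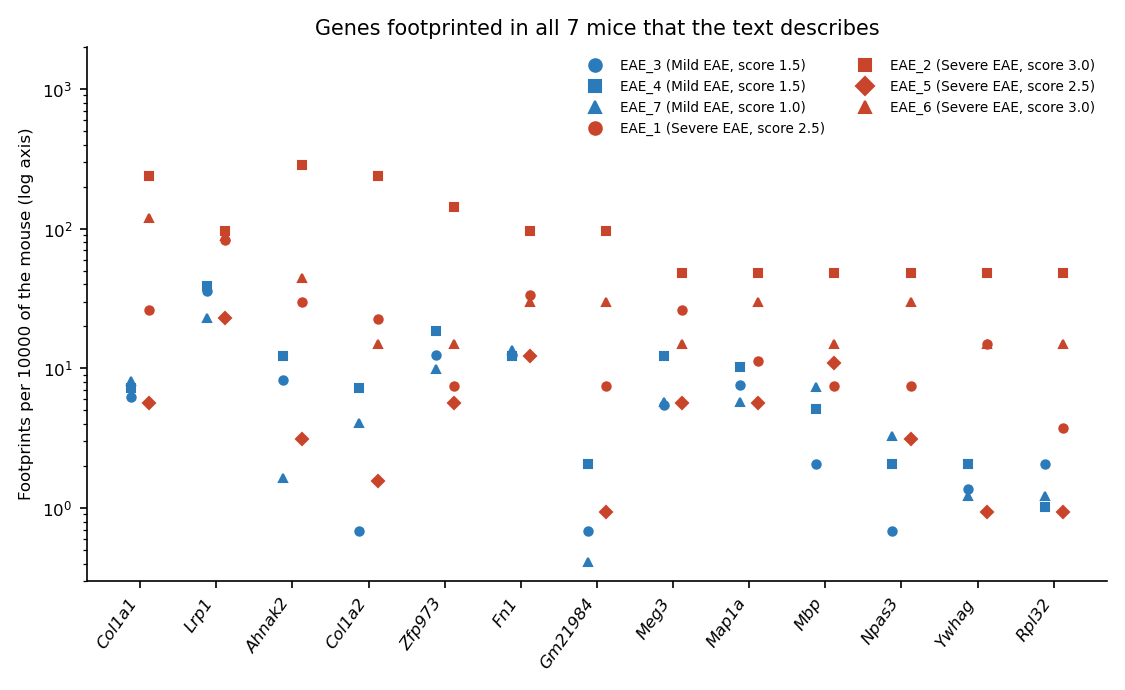
Share of each mouse's footprints (vertical axis, per 10000 footprints, log scale) for the genes described here among those footprinted in all 7 mice. Each point is 1 mouse, coloured by severity, and EAE_2, where 1 footprint is worth 47.8, lies above every mild mouse for each gene, while EAE_5 lies closer to the mild mice.

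At equal shares, the 3 short severe lists, 3552 footprints in all, should hold a number of footprints in each gene that follows from its mean mild share. That number was compared with the observed one as a description, for genes chosen after their values were seen. More footprints than at the mild share were listed for Lrp1, with 30 against 11.6, for Col1a1, with 20 against 2.55, for Ahnak2, with 17 against 2.63, and for Fn1, with 13 against 4.52. C4b, which encodes complement component C4, had 17 against 6.20, and the noncoding transcript Snhg14 had 23 against 14.5. Ulk4, a pseudokinase gene, had 12 against 1.93, of which 11 were in EAE_1. Dst, which encodes the cytoskeletal linker dystonin, had 16 against 17.0. Absent from all 3 short lists were Col11a1, where 7.51 would be held, Col11a2, where 5.93 would be held, and the acid-sensing channel gene Asic2, where 5.44 would be held. Carmil3, Cit, Sptbn4, Kcnt1 and Rasgrf1, with 3.86 to 4.92 each at the mild share, were also absent from the 3 short lists. EAE_5 listed all 8 of these genes, with 83 footprints in Asic2 and 14 to 33 in the others.

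Some genes of mild EAE were listed in no severe mouse. The 8 with the highest mild shares were Tnxb, with 4, 7 and 6 footprints in EAE_3, EAE_4 and EAE_7, Abcf3, with 9, 4 and 3, Fmnl1, with 7, 2 and 10, and Eif3g, Col9a3, Plekhd1, Kpna3 and Dlst, with 10 to 12 each. Tnxb encodes the matrix protein tenascin-X, Fmnl1 a formin of leukocytes and Eif3g a subunit of a translation initiation factor. Kpna3 encodes an importin of nuclear transport and Dlst a subunit of a mitochondrial dehydrogenase. In the other direction, genes listed in at least 3 severe mice and in no mild mouse had few footprints. They were Ptp4a2, a phosphatase gene, with 2 in EAE_1, 3 in EAE_5 and 1 in EAE_6, Abhd8, with 1 each in EAE_2, EAE_5 and EAE_6, and E030024N20Rik, Gm10722 and Rbbp8, with 1 each in EAE_1, EAE_5 and EAE_6. None of the 5 reached 10 footprints, so none entered the test across genes.

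No gene passed the test of a difference in share between severe and mild EAE. A quasi-Poisson model with a variance moderated across genes by limma was fitted to the 2467 genes with 10 or more footprints, with the total of each list as offset. After Benjamini-Hochberg adjustment, 0 genes were called lower, 0% of those tested, and 0 were called higher, 0% as well, with a smallest adjusted p of 0.633. At an unadjusted p under 0.05, 122 genes were lower in severe EAE, 4.95% of those tested, and 65 were higher, 2.63%. limma on log2 shares likewise called 0 genes, with 439 to 634 of the 2467 genes at an unadjusted p under 0.05, nearly all lower. In these fits the median log2 ratio over all genes ran from -2.26 to -0.78, against -0.05 in the main fit. A gene absent from a short list enters these fits there at an added constant alone. The counts on the lower side are thus set in part by list length. The pooled fit gives most of its severe weight to EAE_5. Without EAE_5, 1485 genes could be tested, 0 were called, and 4 genes were lower and 52 higher at an unadjusted p under 0.05. Most of these 1485 genes had no footprint left in severe EAE, where the 3 short lists hold 3552 footprints in all. Such a gene needs a high mild share to reach this p on the lower side. The split of 4 against 52 is thus set in part by list length and gives no direction.

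Among the 10 genes with the smallest p on the lower side, several were absent from the short lists and few footprints were listed in EAE_5. Adam11 had 10, 4 and 15 footprints in the mild mice and 2 in EAE_5. Ints1, a subunit of the Integrator complex, had 13, 5 and 9 in the mild mice and 2 in EAE_5. Crocc and Cep250, both genes of centrosomal linker proteins, had 44 and 41 footprints over the mild mice and 8 and 5 in EAE_5. All 4 genes had 0 in EAE_1, EAE_2 and EAE_6, whereas Col4a2 and Col11a1, also among the 10, had 16 and 33 in EAE_5. The genes at the high end rested mostly on EAE_5. Snx9, a sorting nexin gene, had 12 footprints in EAE_5 and 0 in the other 6 mice. Mtor, which encodes the kinase of growth signalling, had 9 in EAE_5 and 1 in EAE_7, and the proliferation marker gene Mki67 had 11 in EAE_5, 2 in EAE_1 and 1 in EAE_7. These genes were named after their values were seen, and none was called.

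The shares of the groups did not overlap for 339 of the 2467 genes with lower shares in severe EAE, 13.7%, and for 1 with higher shares, 0.0405%. Over all 11623 footprinted genes the numbers were 577 lower, 4.96%, and 2 higher, 0.0172%. The imbalance is set in part by the short lists, since a gene absent from them has a share of 0 and needs only EAE_5 to lie below the mild mice, while a higher share needs a footprint in every list. The 2 genes with higher shares in every severe mouse were Mbp and St3gal2. Mbp, which encodes myelin basic protein, the main protein of compact myelin, had 3, 5 and 18 footprints in EAE_3, EAE_4 and EAE_7. It had 2 in EAE_1, 1 in EAE_2, 35 in EAE_5 and 1 in EAE_6. Its share was 2.06, 5.13 and 7.37 per 10000 in the mild mice and 7.49, 47.8, 11 and 14.9 in EAE_1, EAE_2, EAE_5 and EAE_6. The fitted log2 ratio was 1.04 ± 0.40 (SE), with an unadjusted p of 0.0258 and an adjusted p of 0.645 in the limma-moderated fit. Of the 65 Mbp footprints, 54 lay in introns and 9 in the 3' UTR. In EAE_2 and EAE_6 a single footprint is already worth more than the highest mild share, so these mice could have only a share of 0 or one above the mild range. St3gal2, a sialyltransferase gene, had 1 footprint in EAE_7, 1 each in EAE_1, EAE_2 and EAE_6 and 2 in EAE_5, several of them at the small nucleolar RNA gene Gm26132 within it.

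Collagen genes differed among themselves in severe EAE, since type I collagen took a larger share of the short lists and most other chains had no footprint there. The 27 collagen genes with a footprint were taken as a group after their values were seen. Col1a1 and Col1a2 together held 0.0688%, 0.144% and 0.123% of the footprints of EAE_3, EAE_4 and EAE_7. They held 0.487% in EAE_1, 4.78% in EAE_2, 0.0722% in EAE_5 and 1.34% in EAE_6. The 3 short severe lists were thus above every mild mouse and EAE_5 was not. The 25 other collagen genes held 1.84%, 1.09% and 0.954% in the mild mice and 0.262%, 0.957%, 0.546% and 0.149% in EAE_1, EAE_2, EAE_5 and EAE_6. EAE_2, whose value rests on 2 footprints, overlapped the mild mice and the other severe mice did not. Of the 19 collagen genes in the fit, 16 had a lower share in severe EAE and 3 a higher one, with a median log2 ratio of -1.17 against -0.05 over all genes tested. An unadjusted p under 0.05 was found for 12 of the 19 on the lower side, beside 4.95% of all genes tested, and for 0 on the higher side. Because the group was taken for this contrast, the count is a description only, and none passed adjustment.

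Among these genes, Col5a2, a chain of type V collagen, had 14, 5 and 11 footprints in the mild mice and 2 in EAE_5 alone among the severe mice, with a log2 ratio of -3.45 ± 1.05 (SE) and an adjusted p of 0.633 in the limma-moderated fit. Col11a1 and Col11a2 encode chains of type XI collagen, a fibrillar collagen of cartilage. Col11a1 had 41, 18 and 41 footprints in the mild mice, 33 in EAE_5 and 0 in the 3 short lists, with a log2 ratio of -1.14 ± 0.34. Col11a2 had 32, 15 and 31 in the mild mice, 28 in EAE_5 and 0 in the short lists, with a log2 ratio of -1.02 ± 0.36. Col4a2, a chain of the type IV collagen of basement membranes, had 24, 16 and 24 in the mild mice, 3 in EAE_1 and 16 in EAE_5, with a log2 ratio of -1.29 ± 0.39. Of the 17 collagen genes that were mild targets, 16 were found in EAE_5 and 5 in the short lists. The number of collagen genes lower at an unadjusted p under 0.05 fell to 5 of 17 without EAE_3, to 2 of 18, with 2 higher, without EAE_5, and to 5 of 13 when footprints that meet across an intron were counted as 1.

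**Figure D3:**
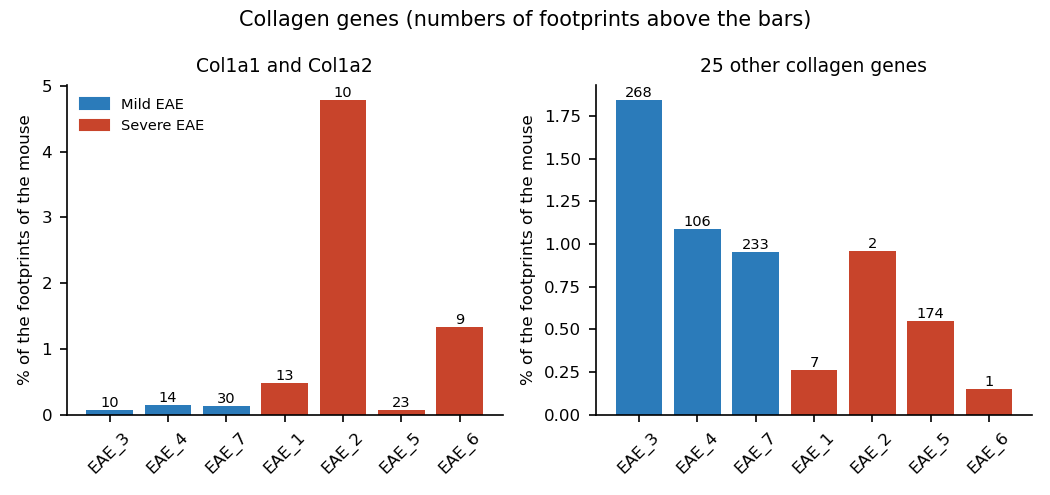
Percent of each mouse's footprints in Col1a1 and Col1a2 (left panel) and in the 25 other collagen genes (right panel), both vertical axes in percent, with 1 bar per mouse and its number of footprints above it. Type I collagen reaches 4.78% in EAE_2 and 1.34% in EAE_6, while the other collagen genes stay at 0.957% or below in every severe mouse.

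Genes of myelin, axon, synapse and ion transport were listed in EAE_5 about as often as mild targets in general, of which 95.5% were listed there. Of the 18 mild targets in the list of myelin and oligodendrocyte genes, all 18 were found in EAE_5 and 12 in the short lists, 66.7% against the background of 37.6%. The counts of the lists were not tested, and they also move with the number of mild footprints per gene. Nfasc, which encodes the neurofascin that anchors myelin loops and nodal channels, had 14, 16 and 27 footprints in the mild mice. It had 7 in EAE_1, 0 in EAE_2, 54 in EAE_5 and 2 in EAE_6. Of the 27 mild targets among axonal cytoskeleton genes, 27 were in EAE_5 and 18 in the short lists. Dst had 66, 61 and 87 footprints in the mild mice and 13, 0, 101 and 3 in the severe mice. Dync1h1, the heavy chain of the dynein motor of retrograde transport, had 44, 25 and 58 in the mild mice and 13, 0, 61 and 4 in the severe mice. All 24 synaptic mild targets were in EAE_5 and 15 in the short lists. All 17 ion transport targets were in EAE_5 and 12 in the short lists.

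The glial and immune lists gave fewer mild targets. Of the 11 astrocyte targets, 11 were in EAE_5 and 9 in the short lists, or 81.8%. Slc1a2, the main glutamate transporter of astrocytes, had 16, 11 and 17 footprints in the mild mice and 7, 0, 28 and 1 in the severe mice, with 47 of its 80 in the 3' UTR. Of the 12 microglial and leukocyte targets, 12 were in EAE_5 and 8 in the short lists. Grn, which encodes progranulin of lysosomes, had 5, 4 and 8 in the mild mice and 1, 0, 6 and 2 in the severe mice. Antigen presentation gave 6 targets, of which 6 were in EAE_5 and 3 in the short lists. The interferon response gave 3 targets, all in EAE_5, and 1 was found in the short lists. Rnf213, a large interferon-induced ubiquitin ligase gene, had 9, 4 and 9 in the mild mice, 22 in EAE_5 and 0 in the short lists.

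RNA processing genes, which include the hnRNP family itself and the SR proteins of splicing, were found in EAE_5 at close to the 95.5% of all mild targets. Of the 10 hnRNP targets, 10 were in EAE_5 and 3 in the short lists, or 30%. Hnrnpa1 itself, which encodes the precipitated protein, had 5, 4 and 4 footprints in the mild mice, 1 in EAE_1, 6 in EAE_5 and 0 in EAE_2 and EAE_6. Hnrnpk, which encodes a binder of C-rich RNA, had 3, 1 and 12 in the mild mice and 2, 0, 6 and 2 in the severe mice. Of the 22 targets among SR proteins and other splicing regulators, 21 were in EAE_5 and 10 in the short lists. Rbfox1, a splicing regulator of neurons, had 9, 15 and 46 in the mild mice and 4, 0, 64 and 1 in the severe mice, and 134 of its 139 footprints were in introns. Of the 10 targets among long noncoding RNAs, 10 were in EAE_5 and 7 in the short lists. Snhg14, a long transcript antisense to Ube3a, had 47, 44 and 110 in the mild mice and 17, 0, 124 and 6 in the severe mice. Of its 348 footprints, 0 lay in coding sequence. Without strand, a footprint in the part where it overlaps Ube3a cannot be assigned to 1 of the genes.

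Housekeeping groups gave the short lists 6 of 12 cytosolic ribosomal protein targets, 2 of 4 mitochondrial targets, 5 of 12 glycolytic targets and 13 of 19 targets among chaperones and translation factors. Ribosomal protein genes held 0.365%, 0.461% and 0.303% of the mild lists and 0.524%, 2.39%, 0.292% and 1.78% of the severe lists of EAE_1, EAE_2, EAE_5 and EAE_6. The values of EAE_2 and EAE_6 rest on 5 and 12 footprints. Pfkm, the muscle-type phosphofructokinase gene of glycolysis, had 19, 11 and 10 footprints in the mild mice, 19 in EAE_5 and 0 in the short lists. Ubr4, a ubiquitin ligase gene, had 30, 21 and 40 in the mild mice, 4 in EAE_1 and 52 in EAE_5. Secreted and surface neural proteins gave 13 of 24 targets and chromatin genes 12 of 18. Lsamp, an adhesion protein gene of the limbic system, had 10, 42 and 100 footprints in the mild mice, 1 in EAE_1 and 152 in EAE_5, with 283 of 305 in introns. In the fit, the 17 lists had 0 to 2 genes lower and 0 to 3 higher at an unadjusted p under 0.05. None was called. The median log2 ratios of the lists ran from -0.32 for astrocyte genes to 0.33 for interferon genes, against -0.05 over all genes tested. The astrocyte value rests on 11 genes in the fit and the interferon value on 3. Interferon genes had 56 footprints in EAE_5, 1 in EAE_1 and 0 in EAE_2 and EAE_6.

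By annotation class, footprints in severe EAE lay less in coding sequence and more in untranslated regions, although no class passed the test after adjustment. Coding sequence took 73.2%, 57.7% and 64.2% of the footprints of EAE_3, EAE_4 and EAE_7. It took 50.8%, 26.8%, 59.6% and 38.2% in EAE_1, EAE_2, EAE_5 and EAE_6. The mild mean was 65.0% ± 7.77 (SD, n = 3), the severe mean was 43.8% ± 14.4 (SD, n = 4), and EAE_5 overlapped the mild mice. The difference of -21.2 percentage points gave a two-sided exact permutation p of 0.0857, or 0.171 after adjustment over the 6 classes. With 4 mice against 3 the smallest p such a test can give is 0.0286.

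The 3' UTR took 2.82%, 3.08% and 4.47% of the footprints of the mild mice and 8.43%, 12.4%, 6.50% and 10.7% of those of EAE_1, EAE_2, EAE_5 and EAE_6. Every severe mouse, EAE_5 included, was above every mild mouse. The mild mean was 3.45% ± 0.885 (SD, n = 3) and the severe mean 9.52% ± 2.60 (SD, n = 4). They differed by 6.06 percentage points with an exact permutation p of 0.0571 and an adjusted p of 0.171. The 5' UTR also did not overlap between groups, with 1.70% to 1.96% in the mild mice and 2.20% to 3.41% in the severe mice. Its means were 1.87% ± 0.146 (SD, n = 3) and 2.71% ± 0.542 (SD, n = 4), with an exact permutation p of 0.0571 and an adjusted p of 0.171. Both rest on few footprints in EAE_2, namely 26 in the 3' UTR and 6 in the 5' UTR.

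The other classes overlapped between groups. Noncoding exons took 5.26% to 6.82% in mild EAE and 5.21% to 17.1% in severe EAE, a difference of 4.78 points with an exact permutation p of 0.286. Introns took 9.97% to 20.9% in mild EAE and 15.1% to 25.8% in severe EAE, a difference of 4.43 points with an exact permutation p of 0.314. Intergenic sequence took 5.99% to 9.52% in mild EAE and 6.86% to 18.2% in severe EAE, a difference of 5.06 points with an exact permutation p of 0.171. The adjusted p values of these 3 classes were 0.257 to 0.314.

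**Figure D4:**
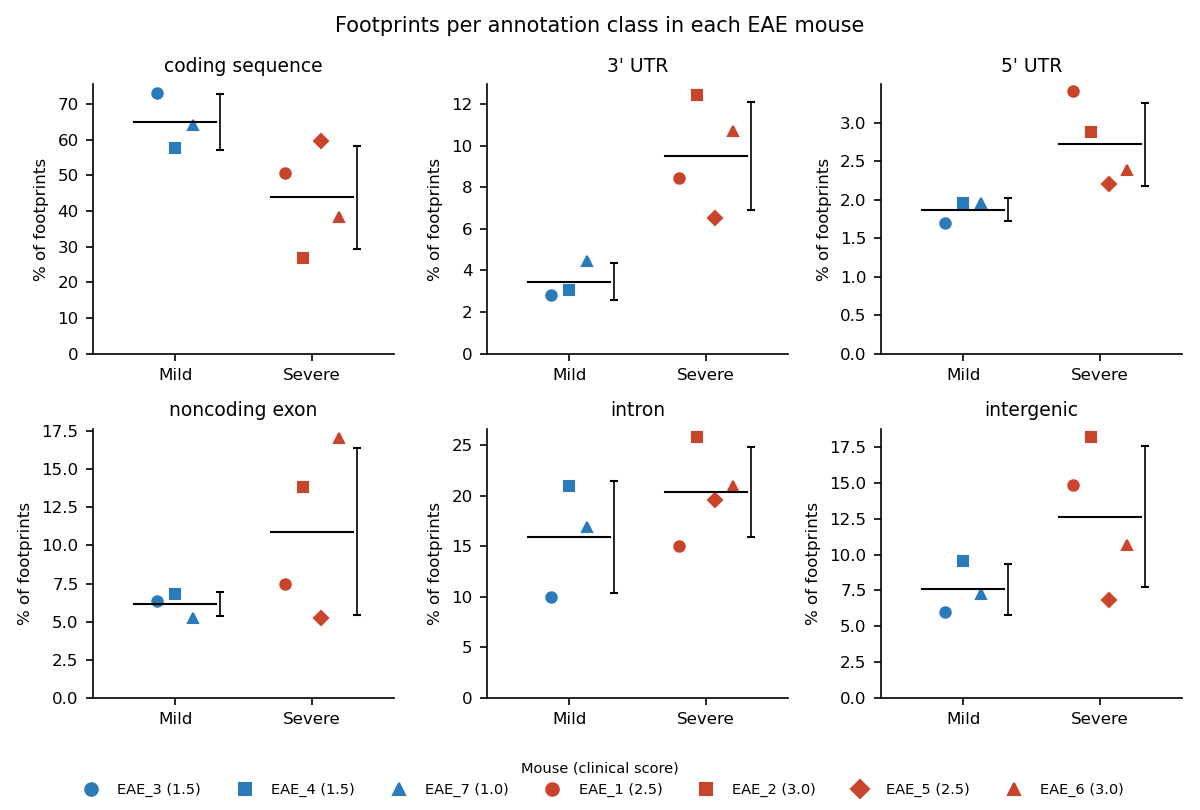
Percent of each mouse's footprints whose midpoint lay in each of 6 annotation classes (vertical axes, percent), with 1 point per mouse and a bar at the group mean. The severe mice lie above the mild mice in the 3' UTR and 5' UTR panels, and the groups overlap in the other 4.

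The coding share ordered the 7 mice in the same way as the percent of footprints that met another across an intron. Only footprints that end at exon ends can meet so, and this link is thus in part built in. The lists hold the aligned pieces of assembled contigs, so a contig over several exons enters as several footprints that end at exon ends. Footprints that met another across an annotated intron made up 61.1%, 42.7% and 51.5% of the mild lists and 33.7%, 9.57%, 48.6% and 22.6% of the lists of EAE_1, EAE_2, EAE_5 and EAE_6. When such footprints were counted as 1, a choice made after seeing the data, coding sequence took 45.6% to 60.3% in mild EAE and 22.7% to 45.1% in severe EAE. The groups then no longer overlapped, and the difference was -17.3 points with an exact permutation p of 0.0571. The 3' UTR then took 3.91% to 6.20% in mild EAE and 8.86% to 13.1% in severe EAE, a difference of 6.33 points with an exact permutation p of 0.0286, the smallest that 7 mice allow. The adjusted p was 0.114 for both.

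Genes with 3' UTR footprints in at least 3 severe mice numbered 31, of which 11 also had them in all 3 mild mice, 7 in 2, 12 in 1 and 1 in none. The 11 included Kcnj10, the glial potassium channel gene, with 2, 1 and 7 footprints of the 3' UTR in the mild mice and 2, 0, 11 and 2 in the severe mice. They also included Syt11, a synaptotagmin gene, with 1, 3 and 3 in the mild mice and 2, 0, 7 and 2 in the severe mice. Among the 12 with 1 mild mouse were Gnao1, a G protein subunit gene, with 2 in EAE_4 and 1, 3 and 6 in EAE_1, EAE_2 and EAE_5, and Syp, the synaptophysin gene, with 2 in EAE_7 and 1 each in EAE_1, EAE_5 and EAE_6. In coding sequence, 69 genes were footprinted in at least 3 severe mice, and 47 of these in all 3 mild mice. For introns the numbers were 43 and 31, and for noncoding exons 27 and 10.

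At the level of sites, agreement between mice was lower than at the level of genes. Stretches covered in at least 2 mild mice numbered 9105. EAE_5 had a footprint over 5814 of them, or 63.9%, EAE_1 over 569, or 6.25%, EAE_6 over 195, or 2.14%, and EAE_2 over 40, or 0.439%. No severe mouse covered 3119 of the stretches, and 2 stretches were covered in all 4. In the other direction, 13.3%, 20% and 7.88% of the footprints of the mild mice met a stretch shared by 2 other mild mice, with a mean of 13.7% ± 6.07 (SD, n = 3). In EAE_1, EAE_2, EAE_5 and EAE_6 the values were 11.2%, 9.09%, 9.15% and 17.6%, with a mean of 11.8% ± 4.03 (SD, n = 4). All 4 severe values lay within the range of the mild mice, and the groups were not tested.

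Shared stretches in untranslated regions were found in the short severe lists more often than those in coding sequence. The 3 short lists together covered 50 of 226 stretches in 3' UTRs, or 22.1%, 25 of 138 in 5' UTRs, or 18.1%, and 88 of 571 in noncoding exons, or 15.4%. They covered 473 of 6780 in coding sequence, or 6.98%, 70 of 965 in introns, or 7.25%, and 46 of 425 between genes, or 10.8%. In EAE_5 the same classes differed less, with 71.2% of 3' UTR stretches and 65.4% of coding stretches found. These shares were described without a test, since stretches of 1 gene are not independent. They also take no account of length. The median length of stretches of at least 30 nt in a single gene was 90 nt. It was 110 nt for those of them found in a short list. A contig over several exons can enter as several pieces in coding sequence, so the classes are counted in unlike units.

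**Figure D5:**
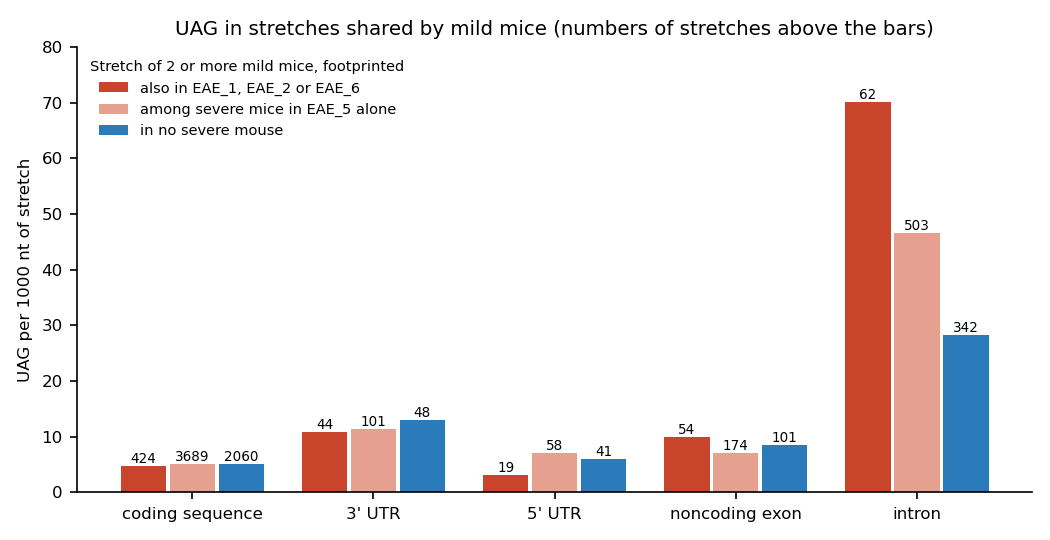
UAG per 1000 nt (vertical axis) in the part of the stretches shared by mild mice in which UAG was counted. Stretches are split by annotation class and by the severe lists in which they were found. Introns fall from 70.2 for stretches found in a short list to 46.6 for those found in EAE_5 alone and 28.2 for those found in no severe mouse, while coding sequence stays between 4.76 and 5.09.

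Intronic stretches that were found again in severe EAE were rich in UAG. UAG was counted in only a part of the shared stretches of each class, so the sets here are smaller than the counts per class above. In that part, the 62 intronic stretches with a footprint in EAE_1, EAE_2 or EAE_6 held 70.2 UAG per 1000 nt. The 503 found in EAE_5 alone held 46.6, and the 342 found in no severe mouse held 28.2. At least 5 UAG were present in 46.8%, 38.4% and 17.3% of these stretches. The 3 sets totalled 10163, 67896 and 40646 nt, and a longer stretch can hold more UAG. The intronic stretches printed above repeat short units, and the part of repeated sequence in these values was not tested. In coding sequence the values were 4.76, 5.09 and 5.08 UAG per 1000 nt, and in the 3' UTR 10.8, 11.4 and 13.0. In noncoding exons they were 10.0, 7.06 and 8.58, and in the 5' UTR 3.05, 7.04 and 5.95, so that the order seen in introns did not appear in the other classes. Over all 6978 stretches of at least 30 nt in a single gene, TAG occurred in the central 30 nt of 19%, and of 18.9% of those found in a short list. The intronic footprints of whole lists showed no such order by severity, with 34.1, 27.4 and 22.0 UAG per 1000 nt in the mild mice and 18.7, 26.9, 21.4 and 40.2 in the severe mice.

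Features of the bound sequence and genes over the whole lists did not differ by the test between severe and mild EAE. UAG occurred 10.7, 13.3 and 10.9 times per 1000 nt in the footprints of the mild mice and 8.85, 15.2, 11.1 and 18.1 times in those of EAE_1, EAE_2, EAE_5 and EAE_6. The difference was 1.67 with an exact permutation p of 0.486. Long noncoding RNA genes took 5.85% to 6.88% of the footprints in mild EAE and 6.25% to 10.1% in severe EAE, a difference of 1.26 points with an exact permutation p of 0.343. The median span of the footprinted genes differed by -0.53 on the log2 scale with an exact permutation p of 0.343. Footprints per footprinted gene were 2.63 to 3.63 in mild EAE and 1.73, 1.39, 4.05 and 1.35 in the severe mice. Their difference was -0.945 with an exact permutation p of 0.286, and the adjusted p values of the 4 features were 0.457 to 0.486.

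Small nucleolar and small nuclear RNAs took a larger part of the short severe lists. Genes of small nucleolar RNAs, which guide the modification of ribosomal and spliceosomal RNA, were met by 0.509%, 0.287% and 0.196% of the footprints of EAE_3, EAE_4 and EAE_7. They were met by 1.05% in EAE_1, 1.91% in EAE_2, 0.238% in EAE_5 and 2.67% in EAE_6. The 3 short lists lay above every mild mouse, with 28, 4 and 18 footprints, and EAE_5 lay among the mild mice with 76. Spliceosomal small nuclear RNA genes took 0.0327% to 0.110% in mild EAE and 0.225%, 2.39%, 0.0408% and 0.892% in the severe mice. These values rest on 6, 5 and 6 footprints in EAE_1, EAE_2 and EAE_6, beside 16, 8 and 8 in EAE_3, EAE_4 and EAE_7. MicroRNA genes took 0.0820% to 0.165% in mild EAE and 0.225%, 0%, 0.122% and 0.446% in the severe mice, where EAE_1, EAE_2 and EAE_6 had 6, 0 and 3 footprints. Processed pseudogenes took 3.07% to 4.20% in mild EAE and 4.72%, 5.74%, 3.03% and 10.1% in the severe mice, and a footprint at a pseudogene may derive from RNA of its parent gene. These gene types were not tested, and their part in the class shares of the short lists was not tested.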

How the data were processed

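hnRNP A1 CLIPseq footprints of 7 mice with EAE, 3 mild and 4 severe, were analysed. The authors trimmed the reads, used rnaSPAdes to build contigs for every library, placed these on GRCm38 by spliced alignment in minimap2, removed sites of the matched input or the pooled control IgG precipitation, and merged overlaps. The submitters' processing notes name bcl2fastq 2.19.0.316, minimap2 2.17, fastp and bedtools. The files deposited by the authors give start and end coordinates of each footprint, with no score, strand, read count or depth, so the precision of a single footprint is unknown and the number of footprints, 209 to 31870 per mouse, limits each share. A gene without a footprint in a list had none retained.

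From these positions, footprints were assigned to every gene of GENCODE M21 they overlap by at least 1 nt, and the midpoint gave the class in the order coding sequence, 3' UTR, 5' UTR, noncoding exon, intron and intergenic. A set of 317 footprints on unplaced sequences was matched by accession. Shares are footprints per 10000 or percent of a mouse's list. Genes with 10 or more footprints were tested with a quasi-Poisson model, with dispersions moderated by limma 3.58.1 in R 4.3.3 and kept at 1 or above, and Benjamini-Hochberg adjustment at 0.05. Class and feature shares were tested by exact two-sided permutation over the 35 assignments of the mice. bedtools 2.31.1, pysam 0.24.0, pandas 2.3.3 and numpy 2.4.6 were used under Python 3.11.15, and figures were drawn with matplotlib 3.10.9. The fit was tested on simulated data. Each mouse is 1 replicate.

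The genes named are those footprinted in all 7 mice, the 8 highest in mild EAE without a severe footprint, the 5 highest in at least 3 severe mice without a mild footprint, and the 2 highest of each of 17 lists. No gene was called, so no gene was named for its p by this rule. A few genes that meet this rule are not reported here. Other genes were named after their values were seen, as stated. The groups, lists and tests were chosen with earlier results of these data known. Alternatives changed the filter, offset, model, length limits, overlap, unit and mice used. Library read totals were not used here.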

Additional observations from a re-analysis of the deposited data

Results flagged for a closer look

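Of 25 measures examined over the 4 severe mice, 3 had 1 mouse far from the others, judged by its gap to the nearest other mouse as a share of the whole range. Chance gives about 1 in 20 groups. EAE_5 had 31870 footprints, where the gap was 0.922 of the range. EAE_5 also had 4.05 footprints per footprinted gene, where the gap was 0.860 of the range. In EAE_2, 5.74% of the footprints lay in collagen genes, where the gap was 0.831 of the range and the value rests on 12 footprints. The part of list length in these values was not tested.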

How the results depend on the processing

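All 186 recomputed values of the main comparisons and all 102 of single genes counted as unchanged. For shares and ratios this meant the same direction and side of the threshold, and for gene counts a similar number called. For mild targets and shared stretches it meant a change below the SD over the severe mice, 41.5 and 30.6 points, which is a wide margin. For results that pass no threshold such agreement says nothing of their stability. No gene was called under any alternative, and no ratio could be given for Col5a2, Col11a1 and Col11a2 without EAE_5, since the other severe mice had 0 footprints there. The number at an unadjusted p under 0.05 was 187 in the main analysis, 51 with footprints meeting across an intron counted as 1, 56 without EAE_5, 318 without a filter and 439 to 634 with limma on log2 shares. The smallest adjusted p was 0.0836, with totals scaled by the median ratio. That scaling moved the median log2 ratio from -0.05 to -0.19, and limma moved it to between -2.26 and -0.78. When each mouse was left out in turn, the difference in percentage points ranged from -26.4 to -15.5 for coding sequence, 5.09 to 7.07 for the 3' UTR, 0.616 to 1.02 for the 5' UTR, 2.72 to 6.68 for noncoding exons, 1.45 to 6.92 for introns and 3.22 to 6.99 for intergenic sequence. The same ranges were 0.0540 to 3.2 UAG per 1000 nt, -0.81 to -0.21 for the log2 span, 0.434 to 1.72 points for long noncoding RNA genes and -1.59 to -0.669 footprints per gene. The mean percent of mild targets found per severe mouse was 35.4%, from 15.4% without EAE_5 to 46.0%, and for shared stretches 18.2%, from 2.94% without EAE_5 to 24.1%. No paired analysis was possible because the mild mice are EAE_3, EAE_4 and EAE_7 and the severe mice are EAE_1, EAE_2, EAE_5 and EAE_6, separate animals that share no number. Replicates are separate mice. The number of retained footprints limits every value from EAE_2 and EAE_6.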
